A study of Rattus norvegicus with 30 samples.

Results

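Thioredoxin 1 and 2 (Txn1, Txn2), their reductases (Txnrd1, Txnrd2), sulfiredoxin (Srxn1), the thioredoxin-binding inhibitor Txnip and 4 peroxiredoxins (Prdx1, Prdx3, Prdx5, Prdx6) were chosen by gene symbol. They are 10 of the 21993 genes in the deposited tables. Thioredoxins reduce disulfide bonds in other proteins and are reduced again by thioredoxin reductases, selenoproteins that take electrons from NADPH. Peroxiredoxins remove hydrogen peroxide with a reactive cysteine, most of them draw on thioredoxin to recover, and sulfiredoxin repairs peroxiredoxin that has been over-oxidized. Txnip holds thioredoxin back, and its transcription follows glucose supply. Srxn1, Txnrd1, Txn1 and Prdx1 are known targets of Nrf2, a transcription factor that electrophiles such as dimethyl fumarate release from its inhibitor Keap1.

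The cells were primary hippocampal neurons of Wistar rat embryos taken at embryonic day 18 and kept for 7 days in culture. They received dimethyl fumarate (DMF) or monomethyl fumarate (MMF) at 30 µM in dimethyl sulfoxide (DMSO), cannabidiol (CBD) at 6 µM in ethanol (EtOH), or either vehicle alone, all at 0.2% vehicle, for 4 or 24 h. DMF is the dimethyl ester of fumaric acid and MMF its monomethyl ester. The 10 groups had 3 RNA libraries each, from 3 independent experiments, and no group differed in genotype or strain.

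The 30 libraries held between 15108132 and 25367834 reads on genes. Markers of other cells were present in cultures labelled as neurons. The astrocyte marker Gfap had a median of 1456 CPM and the oligodendrocyte lineage marker Olig1 a median of 439 CPM, beside 1051 CPM for the neuron marker Map2, where CPM is the read count of a gene scaled to the size of the library, with TMM factors. Markers of further cells had lower CPM. These values are not scaled for gene length, so they show that a marker was present and not the share of a cell type. The medians of the 10 microglia markers ran from 0.0742 CPM (Cx3cr1, at 0 in 11 of 30 libraries) to 2.51 CPM (Cd68, at 0 in none). The endothelial markers had medians of 0 (Cdh5, at 0 in 22 libraries), 0.371 (Flt1) and 1.39 CPM (Pecam1), and the mesenchymal marker Col1a1 one of 19.0 CPM.

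The start regions of the genes are shown first, because Nrf2 is known to bind DNA elements of this kind. RefSeq promoters on GRCr8, which run from 250 bases before the start to 50 after it, were at hand for 8 of the 10 genes, with 2 starts for Txnrd1. Txnip and Prdx6 had no entry. The core of the antioxidant response element, TGACNNNGC, and the AP-1 element TGAGTCA were searched on both strands. The 3 stretches of 75 bases below come from called genes and hold such matches, in capitals, read along the gene's own strand.

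Srxn1, chr3:161064742-161064816, plus strand, from position -70 to 5: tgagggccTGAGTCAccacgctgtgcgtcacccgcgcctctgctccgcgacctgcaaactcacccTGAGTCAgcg
Txnrd1, second start, chr7:22755940-22756014, minus strand, from -110 to -36: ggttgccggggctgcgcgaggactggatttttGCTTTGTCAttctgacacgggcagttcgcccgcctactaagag
Prdx1, chr5:135383736-135383810, plus strand, from -170 to -96: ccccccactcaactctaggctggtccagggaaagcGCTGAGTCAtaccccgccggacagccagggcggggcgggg

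Srxn1 held TGAGTCA at -62 and again at -5, across the start, and no TGACNNNGC. Txnrd1 held TGACNNNGC, read on the reverse strand, at -78 of its second start and none at the first. In Prdx1 the capitals are 2 overlapping matches, TGACNNNGC on the reverse strand at -135 and TGAGTCA on the forward strand at -133, and a further TGAGTCA lay at -248. Prdx5 held TGACNNNGC at -1. The windows of Txn1, Txn2, Txnrd2 and Prdx3 held neither run of letters. TGACNNNGC occurred in 12.1% of all 33469 promoters and in 3 of the 9 promoters of these genes, and TGAGTCA in 4.63% of all and in 2 of the 9.

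DMF raised the cytosolic reductase and sulfiredoxin within 4 h. Txnrd1 and Srxn1 rose, and the other 8 genes did not pass the test. That is 2 of 10 genes, where 3.41% of the 14208 genes tested were called at an adjusted p under 0.05. Values below are normalized counts, which are reads divided by the size factor of the library, and each log2 fold change (log2FC) was computed on the log2 of the normalized count with a pseudocount of 1.

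Srxn1 (ENSRNOG00000031167, chromosome 3 from 140599608 to 140628448 on mRatBN7.2), which returns over-oxidized peroxiredoxin to use, had 151, 129 and 89.1 normalized counts with DMF in replicates 1 to 3, against 31.5, 43.3 and 45.6 with DMSO. Every DMF library lay above every DMSO library. The log2FC was 1.58 ± 0.25 (SE, n = 3), a 2.99-fold level, with a 95% interval of 1.00 to 2.15 and an adjusted p of 0.0227. The call was lost when any of the libraries except DMF replicate 3 was left out, with an adjusted p of up to 0.101 and a log2FC between 1.41 and 1.79, and with a spread estimated from all 30 libraries (adjusted p = 0.0978).

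Txnrd1 (ENSRNOG00000009088, chromosome 7 from 20830045 to 20907863) encodes the reductase of the cytosol. It had 4343, 4111 and 3669 normalized counts with DMF and 2404, 2456 and 2705 with DMSO. These groups were well apart as well, with the smallest ratio in replicate 3. The log2FC was 0.68 ± 0.09 (SE, n = 3), with an interval of 0.48 to 0.87 and an adjusted p of 0.0108, and the call was lost without DMSO replicate 2 (adjusted p = 0.0585) or DMF replicate 2 (adjusted p = 0.0671).

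The remaining genes had log2FC between -0.16 (Txnrd2) and 0.17 (Prdx1) at 4 h. Txnrd2, the reductase of mitochondria, had 305, 314 and 325 normalized counts with DMF and 389, 339 and 326 with DMSO, so its groups did not overlap but nearly touched (log2FC = -0.16 ± 0.11, adjusted p = 0.477). In all, 3 of the 10 genes had groups that did not overlap, where 26.3% of all genes did. With the replicate number as a block, which removes differences between the 3 experiments, Txn1 (log2FC = 0.16, adjusted p = 0.0418) and Prdx1 (0.17, adjusted p = 0.0409) were called too, in a test that called 23% of all genes. The median log2FC of the 10 genes was 0.08, and that of all genes 0.00. Of the cell markers, Tubb3 of neurons (1 of 12) and Pdgfrb of mesenchymal cells (1 of 7) fell with DMF at 4 h. The summed neuron markers were 75051 to 87697 normalized counts against 83477 to 101609, and the part of this shift in the results was not tested.

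At 24 h, DMF had raised a thioredoxin, its reductase, sulfiredoxin and a peroxiredoxin, all known mainly from the cytosol. Srxn1, Txnrd1, Txn1 and Prdx1 rose and none fell, 4 of 10 genes where 3.97% of the 13967 genes tested were called in either direction and 1.88% as higher. The mitochondrial Txn2, Txnrd2 and Prdx3 did not pass the test, nor did Prdx5, Prdx6 and Txnip. Whether cytosolic and mitochondrial genes differed in their response was not tested.

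Srxn1 stood at 132, 240.1 and 425 normalized counts in the DMF libraries and at 31.6, 30.7 and 22.4 in the DMSO libraries. The groups were far apart, and the DMF libraries spread widely among themselves. The log2FC was 3.05 ± 0.37 (SE, n = 3), an 8.27-fold level, with an interval of 2.22 to 3.88 and an adjusted p of 0.00305. It passed in all 6 fits that left out a library, with a log2FC between 2.63 and 3.47.

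Txn1 (ENSRNOG00000012081, chromosome 5 from 72711933 to 72724629), the thioredoxin of the cytosol and nucleus, had 2457, 2413 and 2459.7 normalized counts with DMF, against 1734, 1935 and 1759 with DMSO. The 3 DMF libraries were nearly level. The log2FC was 0.43 ± 0.06 (SE, n = 3), with an interval of 0.29 to 0.58 and an adjusted p of 0.00754. Without DMSO replicate 1 the adjusted p was 0.0644.

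Txnrd1 had 2953, 3166 and 4218 normalized counts with DMF and 2207, 2180.3 and 2246 with DMSO, so replicate 3 had the largest ratio at 24 h and the smallest at 4 h. Its log2FC was 0.62 ± 0.12 (SE, n = 3), with an interval of 0.35 to 0.89 and an adjusted p of 0.0243. Leaving out DMSO replicate 1, 2 or 3 or DMF replicate 2 ended the call, with an adjusted p of up to 0.117.

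Prdx1 (ENSRNOG00000017194, chromosome 5 from 130147204 to 130162856), a peroxiredoxin of the cytosol that thioredoxin reduces, had 4030.4, 4126 and 3052 normalized counts with DMF and 2477, 2812 and 2278 with DMSO. The lowest library of each group was replicate 3. The log2FC was 0.56 ± 0.12 (SE, n = 3), with an interval of 0.28 to 0.84 and an adjusted p of 0.04. This was the weakest of the 4 calls by its adjusted p. It held without DMF replicate 3 and was lost without any of the other 5 libraries (adjusted p up to 0.167). It was also lost with the spread of all 30 libraries (adjusted p = 0.0624), and held in 8 of the 9 alternative settings that kept every library. With the replicate block in limma its adjusted p was 0.000364, in a test that called 12.9% of all genes. A gene of like name, Prdx1l1 on chromosome 2 from 193602121 to 193603084, drew between 10.6% and 13.8% as many reads as Prdx1 in the 30 libraries. Their sequences were not compared, and the handling of reads shared between genes is not given. The split of reads between both is therefore uncertain.

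Txnip (ENSRNOG00000021201, chromosome 2 from 184092991 to 184096886), the inhibitor, had 1712, 2481 and 1753 normalized counts with DMF and 1439, 1659 and 1488 with DMSO at 24 h. Its groups did not overlap, yet the test was not passed (log2FC = 0.36 ± 0.13, adjusted p = 0.21). With the replicate block it was called (adjusted p = 0.0104), which made 5 called genes where that test called 12.9% of all genes. The groups of these 5 genes did not overlap, which 11.3% of all genes showed in this direction. The median log2FC of the 10 genes was 0.30 at 24 h, and that of all genes -0.01.

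In the mitochondrial arm, Txn2 (chromosome 7 from 109496761 to 109510359) had a log2FC of -0.02 with an interval of -0.18 to 0.13, and Prdx3 (chromosome 1 from 260001637 to 260014111), which removes peroxide in the matrix, had 0.10 with an interval of -0.05 to 0.25. Txnrd2 (chromosome 11 from 82519999 to 82568156) had 0.24 with an interval of -0.02 to 0.50, and its 3 ratios were uneven, at 0.19, 0.00 and 0.54. Prdx5 (chromosome 1 from 204099826 to 204114268), a peroxiredoxin of mitochondria, peroxisomes and cytosol, had 0.00 (-0.16 to 0.17). Prdx6 (chromosome 13 from 73528210 to 73539355), which recovers with glutathione, had 0.18 (-0.26 to 0.62). Prdx5 overlaps Esrra by 10168 bases. The strand setting of the counting is not given in the sources used here, so reads of this pair cannot be told apart with certainty.

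Levels of cell markers moved with DMF at 24 h. All 10 proliferation markers fell, and their summed normalized counts were 2149 to 2549 with DMF and 5045 to 5457 with DMSO. Of the oligodendrocyte lineage markers, 4 of 9 tested fell (sums 12034 to 14790 against 15003 to 18526). Of the astrocyte markers 1 of 10 fell (Aldh1l1), 3 of 10 had a log2FC above 0, and the median log2FC was -0.19. Their sums overlapped (59856 to 107931 against 56667 to 95014) and had a ratio of means of 1.14, so this list and its sum leaned in opposite directions. None of the 12 neuron markers passed the limma test (5 had an unadjusted p under 0.05), with sums of 72028 to 87582 against 86448 to 94763. In bulk RNA, fewer cells of a type and less RNA per cell cannot be told apart, and the part of these shifts in the results on the 10 genes was not tested.

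**Figure D1:**
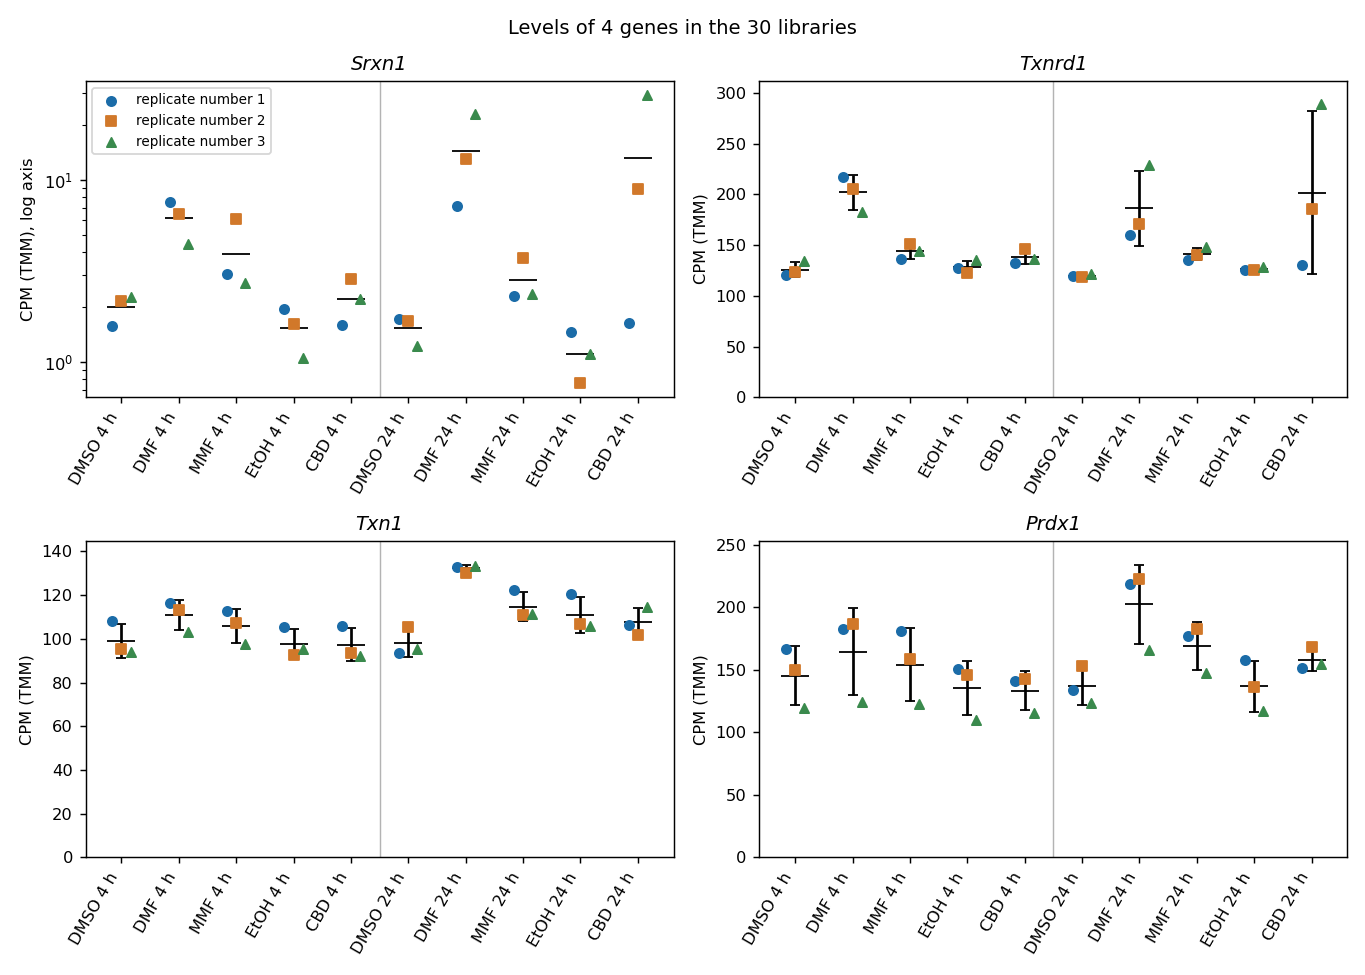
Level of Srxn1, Txnrd1, Txn1 and Prdx1 in CPM (TMM) in each of the 30 libraries, by group and time, with a marker for each replicate number, the mean of each group as a black line and, except for Srxn1 on its log axis, the SD as error bars. Srxn1 ran from 0.764 CPM in an EtOH library to 29.2 CPM in a CBD library at 24 h, and Txn1 was highest in the 3 DMF libraries at 24 h.

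Measured against the same DMSO libraries, MMF at the same dose gave values in the same direction for the genes that DMF raised. None of the 10 genes passed the limma test without the replicate block at either time. With the block 2 passed at 24 h, as given below. At 4 h no gene at all was called (0% of 14032, 36 genes with an unadjusted p under 0.05), and of the 10 genes Txnrd1 and Srxn1 had an unadjusted p under 0.05. The edgeR and DESeq2 tests called 0 of the 10 at 4 h as well. Srxn1 had 54.8, 110.2 and 49.7 normalized counts with MMF at 4 h and 28.8, 39.5 and 41.6 with DMSO, with MMF replicate 2 the highest by far (log2FC = 0.87 ± 0.33, n = 3, limma adjusted p = 1.00).

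At 24 h with MMF, 0 of the 10 genes were called by limma, edgeR and DESeq2, where limma called 0.00707% of 14137 genes, and 4 of the 10 and 626 of all genes had an unadjusted p under 0.05. These 4 were Txnrd1 (log2FC = 0.23 ± 0.05), Txn1 (0.22 ± 0.06), Srxn1 (0.83 ± 0.25) and Prdx1 (0.30 ± 0.10), each with a limma adjusted p of 0.952. Txnrd1 had 2619, 2723 and 2853 normalized counts with MMF and 2322, 2290.1 and 2359 with DMSO, a small difference with no overlap. Non-overlapping groups, higher with MMF, were seen for 3 of the 10 genes and for 4.62% of all genes. With the replicate block, Txnrd1 (adjusted p = 0.013) and Prdx1 (adjusted p = 0.00324) were called, 2 of 10 genes in a test that called 1.38% of all genes. Txnip was the gene with the lowest log2FC, -0.21 ± 0.11, and lay below its DMSO library in all 3 replicates.

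DMF and MMF, given at the same dose for the same times, were compared directly for the 10 genes at both times, with p-values adjusted over all genes tested. At 4 h Txnrd1 passed the test, 1 of 10 genes where 1.61% of all genes were called. It had 4299.8, 4066 and 3625 normalized counts with DMF and 2682, 2994 and 2883 with MMF, apart in every library (log2FC = 0.48 ± 0.09, interval 0.28 to 0.69, adjusted p = 0.0416). Each of the 6 fits that left out a library lost this call, with an adjusted p of up to 0.177 (without DMF replicate 2) and a log2FC between 0.43 and 0.55. Srxn1 was 0.70 ± 0.33 higher on the log2 scale with an interval of -0.06 to 1.46 (adjusted p = 0.325). Its ratios were 1.33, 0.09 and 0.70, and with the replicate block it was called (adjusted p = 0.0126), beside 23.6% of all genes.

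At 24 h, Srxn1 was the gene that differed, 1 of 10 where 3.56% of all genes were called. It had 146, 265 and 469 normalized counts with DMF and 47.1, 75.6 and 48.1 with MMF. The lowest DMF library lay clearly above the highest MMF library, and the log2FC was 2.22 ± 0.38 (n = 3, interval 1.36 to 3.09, adjusted p = 0.0173). The call was lost without MMF replicate 1 (adjusted p = 0.0963) or DMF replicate 2 (adjusted p = 0.0677). Without passing the test, Txn1, Txnrd1, Txnrd2 and Txnip also had DMF libraries that all lay above the MMF libraries, which makes 5 of 10 genes where 11.6% of all genes showed it. Txnip was 0.57 ± 0.16 higher with DMF on the log2 scale (interval 0.20 to 0.93, adjusted p = 0.106), Txnrd1 0.39 ± 0.12 (0.11 to 0.66, adjusted p = 0.142) and Txnrd2 0.36 ± 0.10 (0.13 to 0.59, adjusted p = 0.107).

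Under the replicate block 6 of the 10 genes were higher with DMF than with MMF at 24 h, in a test that called 12.2% of all genes. Besides Srxn1, they were Txnip (adjusted p = 0.00107), Txnrd1 (0.00913), Prdx1 (0.0145), Txnrd2 (0.0388) and Txn1 (0.0421). For the other 4 genes no difference was detected, and the interval for DMF against MMF was -0.22 to 0.13 for Txn2, -0.10 to 0.22 for Prdx3, -0.16 to 0.16 for Prdx5 and -0.44 to 0.53 for Prdx6. Cell markers differed in this comparison too. All 10 proliferation markers were lower with DMF than with MMF at 24 h (sums 2376 to 2817 normalized counts against 6375 to 6785), as were 4 of 10 oligodendrocyte lineage markers (13302 to 16349 against 17698 to 18955), 1 of 12 neuron markers (79621 to 96658 against 93658 to 100833) and 1 of 7 mesenchymal and endothelial markers (1077 to 1456 against 1633 to 2280.2). Their part in the results was not tested.

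**Figure D2:**
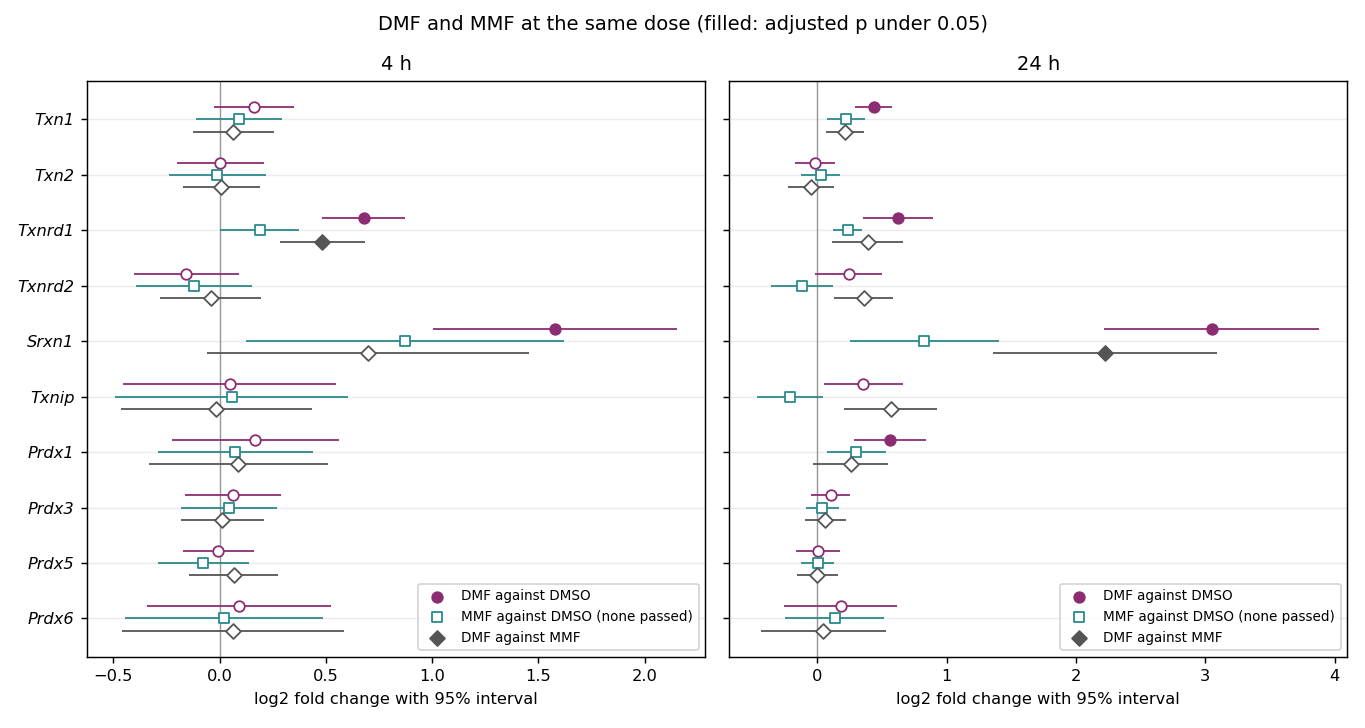
Log2 fold change with its 95% interval of each of the 10 genes at 4 h and 24 h, for DMF against DMSO (circles), MMF against DMSO (squares) and DMF against MMF (diamonds). Symbols are filled where the adjusted p was under 0.05 in limma without the replicate block. Filled symbols stand at Txnrd1 and Srxn1 at 4 h and at Srxn1, Txn1, Txnrd1 and Prdx1 at 24 h, and the square of no gene is filled.

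CBD, at another dose and in another vehicle, called none of the 10 genes against EtOH. At 4 h, 0 of the 10 genes and 563 of all genes had an unadjusted p under 0.05, and limma called 0.00705% of 14193 genes. The median log2FC of the 10 genes was 0.00. Txnip had 1220.1, 1999 and 1957 normalized counts with CBD and 899.5, 1750.1 and 1632 with EtOH, each CBD library above the EtOH library of its number although the groups overlapped (log2FC = 0.30 ± 0.28). With the replicate block it was called (adjusted p = 0.00442), where that test called 2.33% of all genes. The edgeR and DESeq2 tests without the block called 0 of the 10 at both times.

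At 24 h with CBD the 3 experiments differed widely. The library of CBD replicate 3 stood apart over all genes, with a chi-square per gene of 51.5 against replicate 1 and 32.3 against replicate 2, the 2 highest of the 30 replicate pairs, beside 14.5 between replicates 1 and 2. Its summed astrocyte markers, 2307 CPM, were the lowest of the 30 libraries. Replicate number 3 was the lowest of its group in all 10 groups, however, with sums of 2307 to 3247 CPM. The part of this in the results was not tested. Srxn1 had 30.9, 169 and 551 normalized counts with CBD in replicates 1, 2 and 3, and 27.6, 14.5 and 20.8 with EtOH. Replicate 1 was close to its vehicle, while replicates 2 and 3 were far above. The log2FC was 2.76 ± 0.87 (n = 3) and did not pass (adjusted p = 0.403), where limma called 0.114% of 14079 genes, and 3 of the 10 and 1384 of all genes had an unadjusted p under 0.05. Without CBD replicate 1 the log2FC was 3.84 and Srxn1 was called (adjusted p = 0.0177), in a fit that called 0.809% of all genes. Without CBD replicate 3 the log2FC of Srxn1 was 1.79 (adjusted p = 0.574).

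Txnrd1 did not pass either, with 2467, 3517 and 5455 normalized counts with CBD and 2381, 2388 and 2424 with EtOH (log2FC = 0.59 ± 0.24, adjusted p = 0.487). Without CBD replicate 3 its log2FC was 0.30 (adjusted p = 0.72). A spread estimated from all 30 libraries called both Srxn1 (adjusted p = 0.0136) and Txnrd1 (adjusted p = 0.0454), in a fit that called 2.6% of 14930 genes. The Nrf2 targets Hmox1, which encodes heme oxygenase, and Osgin1 were uneven as well, with log2 ratios to EtOH of 0.44, 4.29 and 6.43 for Hmox1 and 0.67, 3.14 and 4.15 for Osgin1. With DMF at 24 h the log2 ratio of Hmox1 was again highest in replicate 3, at 4.42, and stood at 2.66 in replicate 2. Neither Txn1 (log2FC = -0.05 ± 0.09) nor Prdx1 (0.21 ± 0.12, adjusted p = 0.589), both raised by DMF, passed with CBD at 24 h. The neuron markers Gad1 and Gad2 fell with CBD at 24 h, 2 of 12, with marker sums of 79977 to 84967 normalized counts against 86926 to 102935, and the part of this shift in the results was not tested.

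**Figure D3:**
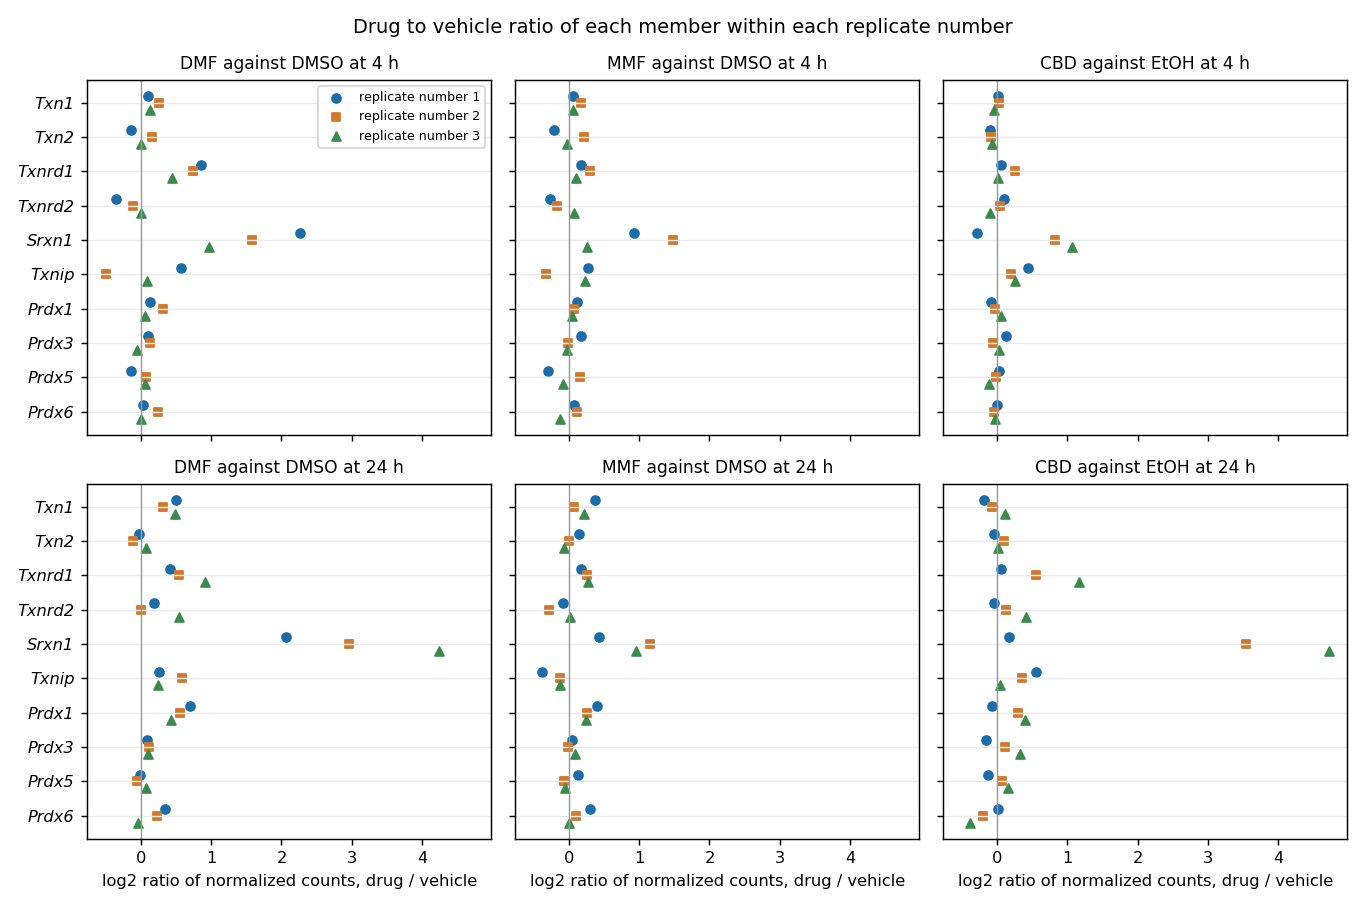
Log2 ratio of the normalized counts with drug to those with its vehicle for each of the 10 genes, in each of the 3 replicate numbers (markers), in 1 panel per drug and time. Srxn1 stands apart to the right in the DMF panels, with ratios from 0.97 to 2.26 at 4 h and 2.06 to 4.25 at 24 h, and in the CBD panel at 24 h only its replicate numbers 2 and 3 do so.

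Between 4 and 24 h with DMF, Txnip and Txn1 rose. These were 2 of 10 genes where 15.5% of all genes were called, a share near that background. Txnip had 1149, 949.5 and 1373 normalized counts at 4 h and 1905, 2757 and 1955 at 24 h, with every later library higher (log2FC = 0.93 ± 0.17, adjusted p = 0.00911). With DMSO alone its log2FC over the same time was 0.62 ± 0.18, and its effect of DMF at 24 h was 0.31 ± 0.29 larger than at 4 h on the log2 scale (adjusted p = 0.63). Txn1 had 2392, 2328 and 2114 at 4 h and 2734, 2681 and 2743 at 24 h (log2FC = 0.26 ± 0.07, adjusted p = 0.0454), a call lost without any of the 6 libraries (adjusted p up to 0.119). With the replicate block, Srxn1 (1.10, adjusted p = 0.0282), Prdx1 (0.31, adjusted p = 0.00318) and Prdx6 (0.22, adjusted p = 0.0143) were added, in a test that called 32.3% of all genes. All 10 proliferation markers fell between these times, with sums of 2387 to 2835 normalized counts against 7297 to 8934, and their part in the results was not tested.

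Whether the effect of DMF on a gene differed between the times was tested as an interaction. None of the 10 genes passed in limma, where 4.12% of 14432 genes were called. An unadjusted p under 0.05 was seen for 3 of the 10 and 2789 of all genes. DESeq2 called 1 of the 10, in a test that called 6.88% of all genes. For Srxn1 the effect at 24 h was 1.47 ± 0.49 larger on the log2 scale (interval 0.40 to 2.54, adjusted p = 0.116). It passed in DESeq2 (adjusted p = 0.0399), with the replicate block in limma (0.0472) and without DMF replicate 1 of 24 h (0.029), but not in edgeR (0.121), in edgeR with the block (0.0805) or with the spread of all 30 libraries (0.369). For Prdx1 the effect was 0.39 ± 0.24 larger (adjusted p = 0.41) and passed with the block (0.0233), beside 13.2% of all genes. For MMF and CBD, 0 of the 10 interactions passed in limma, with the block, in edgeR or in DESeq2, and 0 had an unadjusted p under 0.05 (131 of all genes for MMF and 625 for CBD). Of all genes, 0% were called in limma for both drugs, and with the block 0% for MMF and 0.0552% for CBD.

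Txnip was not called between the vehicles without the block. At 24 h it had 1439, 1661 and 1489 normalized counts with DMSO and 953, 1229 and 1119.6 with EtOH, apart in every library (log2FC = 0.48 ± 0.10, limma adjusted p = 0.973). At 4 h the order was turned, with 716, 1243 and 1199 with DMSO and 869, 1693 and 1581 with EtOH (log2FC = -0.37 ± 0.28, adjusted p = 1.00). None of the 10 genes was called by limma, edgeR or DESeq2 between the vehicles, where limma called 0% of all genes at both times (534 genes at 4 h and 626 at 24 h had an unadjusted p under 0.05, among them 0 and 2 of the 10). With the replicate block Txnip was called at 24 h (adjusted p = 0.00673, 0.486% of all genes) and at 4 h (adjusted p = 0.0257, 0.39% of all genes).

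From 4 to 24 h, Txnip was 0.62 ± 0.18 higher with DMSO on the log2 scale (adjusted p = 0.389, called with the block at 0.0213 beside 1.47% of all genes) and 0.23 ± 0.23 lower with EtOH (log2FC = -0.23, adjusted p = 1.00). In neither of the vehicles was any of the 10 called over time by limma, edgeR or DESeq2 without the block, and 1 of the 10 had an unadjusted p under 0.05 in each, while limma called 0% of all genes (1362 with DMSO and 391 with EtOH had an unadjusted p under 0.05). The difference between the vehicles in the change over time was not tested.

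Over the 10 groups, the levels of each gene in CPM (TMM) were ordered. Srxn1 was highest with DMF at 24 h (14.4 ± 8.04 CPM, SD, n = 3), followed by CBD at 24 h (13.2 ± 14.3 CPM) and DMF at 4 h (6.15 ± 1.58 CPM), and lowest with EtOH at 24 h (1.11 ± 0.35 CPM). The first and second places did not differ beyond their spread, and the means of the 4 vehicle groups stood below those of the 6 drug groups. Txnrd1 was highest with DMF at 4 h (202 ± 17.5 CPM), CBD at 24 h (202 ± 80.2 CPM) and DMF at 24 h (187 ± 37 CPM), which did not differ beyond their spread either, and lowest with DMSO at 24 h (120 ± 1.69 CPM).

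Txn1 was highest with DMF at 24 h (132 ± 1.68 CPM), above MMF at 24 h (115 ± 6.55 CPM), and lowest with CBD at 4 h (97.3 ± 7.58 CPM). Prdx1 ran from 202 ± 31.9 CPM with DMF at 24 h through 169 ± 19.1 CPM with MMF at 24 h to 133 ± 15.7 CPM with CBD at 4 h. Txnip was highest with DMF at 24 h (107 ± 23.2 CPM) and lowest with DMSO at 4 h (55.5 ± 15.5 CPM). Neighbours in these orders mostly lay closer than their SD, in 6 of the 9 steps for Srxn1, 7 for Txnrd1 and 8 for each of Txn1, Prdx1 and Txnip.

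Txn2 ran from 60.1 ± 3.10 CPM with EtOH at 4 h to 52 ± 2.44 CPM with DMF at 24 h, and Txnrd2 from 18.8 ± 1.44 CPM with DMF at 24 h to 14.7 ± 0.795 CPM with MMF at 24 h. Prdx3 ran from 57.1 ± 10.8 CPM with CBD at 24 h to 49.1 ± 5.10 CPM with DMSO at 4 h, and Prdx5 from 119 ± 16.9 CPM with CBD at 24 h to 104 ± 10.3 CPM with MMF at 4 h. For each of these and for Prdx6, every step of the order was smaller than the spread.

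Prdx6 varied mostly between the experiments. The replicate number accounted for 82.3% of its variation over the 30 libraries, and the group for 12.3%. Replicate number 3 was the lowest of its group in 10 of 10 groups, with 110 to 151 CPM, against 163 to 211 CPM in number 1 and 165 to 229 CPM in number 2. The summed astrocyte markers were also lowest in number 3 in 10 of 10 groups, at 2307 to 3247 CPM against 3809 to 5218 CPM and 4375 to 5831 CPM, while the summed neuron markers were highest there in 9 of 10 groups. The part of the cell makeup in the level of Prdx6 was not tested. Prdx1 was lowest in number 3 in 9 of 10 groups, where the number accounted for 40.3% of the variation and the group for 48.9%.

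**Figure D4:**
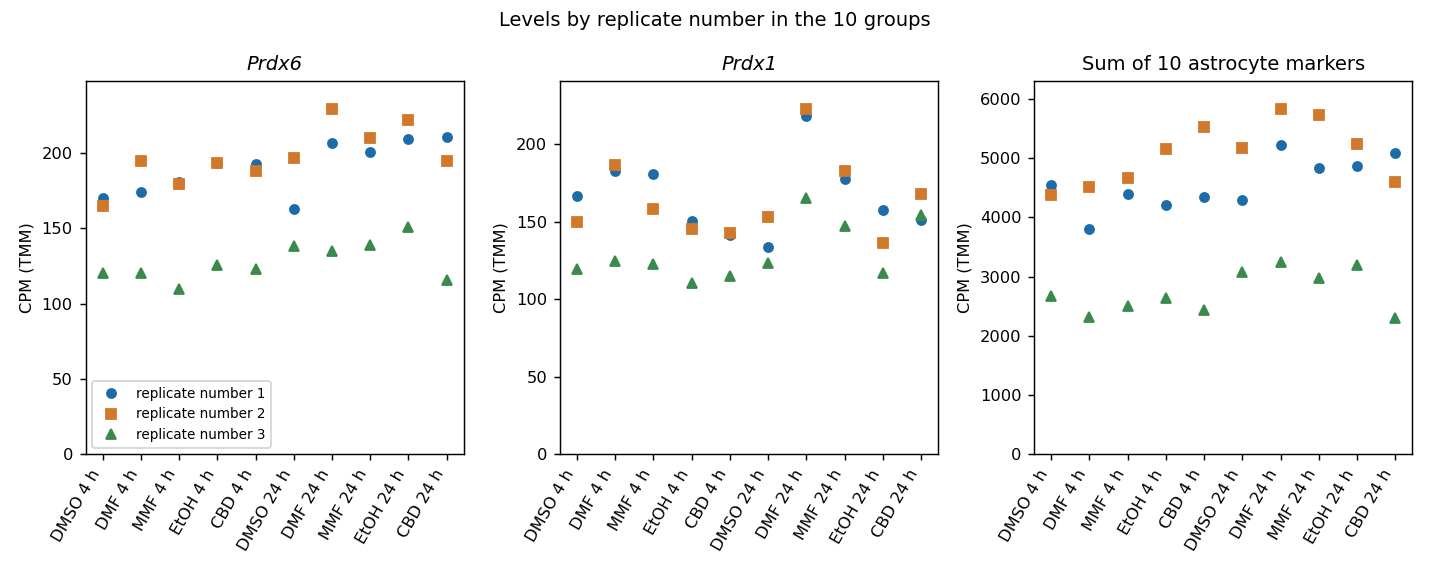
Level in CPM (TMM) of Prdx6, of Prdx1 and of the sum of 10 astrocyte markers in each library, by group, with a marker for each replicate number. The libraries of replicate number 3 lie below those of numbers 1 and 2 in 10 of 10 groups for Prdx6 and for the marker sum, and in 9 of 10 for Prdx1.

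Around the 10 genes, few relatives were called with DMF, where 3.41% of all genes were called at 4 h and 3.97% at 24 h. Of 16 further thioredoxin and peroxiredoxin family genes tested, 0 were called with DMF at 4 or 24 h by limma (3 and 2 had an unadjusted p under 0.05), the largest log2FC at 24 h being that of Txndc16 (0.44 ± 0.11, adjusted p = 0.0678), and of 4 glutaredoxins 0 were called (0 and 1 by unadjusted p, Glrx3, 0.16 ± 0.06, adjusted p = 0.219). The median log2FC of the family genes at 4 h was 0.10, with 14 of 16 above 0, and that of the glutaredoxins 0.07, with 4 of 4 above 0. That of all genes was 0.00 and that of the 10 genes 0.08, so a small upward lean at 4 h was shared by these relatives. At 24 h the medians of the 2 lists were 0.06 and -0.05, beside -0.01 over all genes. Of 8 client enzymes and kinases of thioredoxin, 2 fell at 24 h, both subunits of ribonucleotide reductase, which makes deoxyribonucleotides for DNA: Rrm2 (log2FC = -1.29 ± 0.11, adjusted p = 0.000623) and Rrm1 (-0.53 ± 0.07, adjusted p = 0.00482). They fell together with the proliferation markers above.

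The lists that follow stand beside 3.41% of all genes called with DMF at 4 h and 3.97% at 24 h. Among the other peroxide and superoxide enzymes, 1 of 9 rose with DMF at 24 h, the cytosolic dismutase Sod1 (0.34 ± 0.07, adjusted p = 0.0289). Of the 3 sestrins, proteins induced by stress that restrain growth signalling, Sesn2 (log2FC = 1.50 ± 0.13, adjusted p = 0.00469) and Sesn1 (0.41 ± 0.08, adjusted p = 0.0377) rose at 4 h, and Sesn2 was still raised at 24 h (1.09 ± 0.21, adjusted p = 0.0244). Of 7 genes for making selenoproteins, the class to which the reductases belong, 1 rose at 24 h (Secisbp2l, 0.33 ± 0.06, adjusted p = 0.0185), with a median log2FC of 0.05. At 4 h 0 of the 7 were called and 2 had an unadjusted p under 0.05. This list leaned downward at 4 h, with 1 of 7 above 0 and a median log2FC of -0.17. None of 6 tested genes of the arrestin family of Txnip and of glucose sensing was called at either time (2 and 0 by unadjusted p, Arrdc2 at 24 h, 0.19 ± 0.10, adjusted p = 0.387).

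The Nrf2 reference genes were called 3 of 12 at 4 h (Hmox1, log2FC = 3.92 ± 0.36, Osgin1, 2.46 ± 0.46, and Mafg, 0.46 ± 0.07) and 9 of 12 at 24 h, all higher with DMF, with a median log2FC of 0.59 at 4 h and 1.26 at 24 h. Over all genes 3.41% were called at 4 h and 3.97% at 24 h, and the median log2FC was 0.00 and -0.01. At 24 h the strongest by p were Gstp1 (1.55 ± 0.06), Nqo1 (2.35 ± 0.10), Gsta1 (2.34 ± 0.19) and Gclc (0.74 ± 0.08). Gstp1, a glutathione transferase, was also the gene called with MMF at 24 h (0.66 ± 0.06, adjusted p = 0.0454). With CBD at 24 h, 0 of 12 were called by limma, 7 had an unadjusted p under 0.05 and all 12 had a log2FC above 0. Over all genes 0.114% were called there, and 1384 of 14079 had an unadjusted p under 0.05.

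The genes most like each called member in level were found from Pearson's r over the 10 group means of log2 CPM, among 14920 genes. The points share libraries and experiments, and r is a description. Txnrd1 was most like Hmox1 (r = 0.983), Tfe3 (0.976) and Rhbdd1 (0.965), and Srxn1 most like Tmem43 (0.975), Osgin1 (0.974) and Akr1b10 (0.967). For Txn1 they were Me1 (0.966), Matn2 (0.941) and Thyn1 (0.918), and for Prdx1 they were Prdx1l1 (0.950), Nqo1 (0.942) and Aox1 (0.938).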

How the data were processed

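RNA was sequenced from rat hippocampal neurons in 30 libraries, 3 in each of 10 groups assigned from the GEO titles. Per the submitters' processing notes, reads were trimmed with Cutadapt 4.4 and Trimmomatic 0.39, aligned to mRatBN7.2 with HISAT2 2.2.1, counted with HTSeq 2.0.3 and compared with DESeq2 1.40.2. The strand setting and the handling of reads shared between genes are not given in the sources used here. The signal values deposited by the authors are counts per gene divided by a size factor per library within a table. Columns with the authors' fold changes and p-values were not used. The values of 13 deposited files were used and those of 6 were not.

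In each library values were whole multiples of 1 step, so whole reads were recovered (100% of values within 0.01 of a whole number). Libraries of a group differed by at least 5.72 in chi-square per gene, so none was a repeat.

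The log2 of the normalized count, with a pseudocount of 1, was fitted with a mean trend in limma 3.58.1 (R 4.3.3). Low genes were removed beforehand from the recovered reads with edgeR 4.0.16 (filterByExpr). The Benjamini-Hochberg adjustment ran over all genes of a comparison, with 0.05 as threshold, and intervals are 95% for a single gene. All 10 genes passed the filter in every comparison. Interactions used 12 libraries. CPM used TMM. No gene lengths were at hand, so levels per length were not made and levels of the 10 genes are not compared with each other. The replicate numbers mark 3 independent experiments per the design text, and libraries of the same number deviated together (correlations between 0.129 and 0.668, against at most 0.185 for different numbers). Alternatives were DESeq2 1.42.0, the quasi-likelihood test of edgeR, TMM scaling, no filter, pseudocounts of 0.1 and 10, the replicate block in limma and in edgeR, a spread from all 30 libraries, and leaving out each library. The tests were tried on simulated data.

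All 10 genes were reported in every drug comparison. Of other lists, the called genes with at most the 4 smallest p per list and comparison were named, and for a list without a call the gene with the largest change with DMF at 24 h. The genes and lists were chosen with earlier results of these data known.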

Additional observations from a re-analysis of the deposited data

How the results depend on the processing

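Over 160 log2 fold changes of the 10 genes in 16 comparisons, 2496 alternative values kept the direction or had no call on either side, and 165 of these, with no call on either side, had the opposite sign. The call was lost in 35, gained in 49 and reversed in 0. The number of called genes of the 10 moved as follows. With the replicate block it was 4 in place of 2 for DMF against DMSO at 4 h, 2 in place of 0 for MMF at 24 h, 1 in place of 0 for CBD at 4 h, 2 in place of 1 for DMF against MMF at 4 h and 6 in place of 1 at 24 h, 5 in place of 2 for DMF at 24 against 4 h, 2 in place of 0 for the interaction of DMF with time, and 1 in place of 0 (Txnip) for the vehicles at 4 h and at 24 h and for DMSO over time. In edgeR with the replicate block the counts were the same, except 3 for MMF at 24 h (1.77% of all genes called) and 1 for the interaction (13.4%). The block changed no other count by over 1.5 times. DESeq2 gave 3 for DMF against MMF at 24 h (5.87% of all genes called) and 1 for the interaction (6.88%). No filter gave 1 for DMF at 24 against 4 h (10.3%). A spread from all 30 libraries gave 1 for DMF at 4 h (10.2% of all genes called), 2 for CBD at 24 h (2.6%) and 0 for DMF against MMF at 4 h (9.26%).

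Leaving out 1 library at a time gave 0 to 2 called genes for DMF at 4 h, 1 to 4 for DMF at 24 h, 0 to 1 for CBD at 24 h, 0 for DMF against MMF at 4 h and 0 to 1 at 24 h, 1 to 2 for DMF at 24 against 4 h, and 0 to 1 for the interaction of DMF with time. Fits without a library have fewer samples, and the cause of the other shifts was not tested. Srxn1 rests on 13 to 637 reads per library, and the other genes on at least 207.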
